A study of Mus musculus with 10 samples.

Results

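The EGR, NR4A and neuronal activity genes are 10 immediate-early genes, Egr1, Egr2, Egr3, Egr4, Nr4a1, Nr4a2, Nr4a3, Arc, Npas4 and Ier2, whose RNA was measured in whole mouse retina. They were taken by symbol from the 57010 gene rows of the count table, and all 10 were found. Of these, 9 had enough reads to enter the gene-wise test of 15539 genes, and Egr2 did not. The samples were retinas of 10 mice aged 6 to 8 weeks at the start, 5 given AAV2-GFP and 5 given AAV206-GFP by injection into the vitreous, collected 14 days later. AAV stands for adeno-associated virus, and in both groups the vector carried green fluorescent protein (GFP) as a reporter. AAV2 is a natural serotype in wide use in the eye, the series concerns a vector for the retinal pigment epithelium, and the labels give only the name of AAV206. The labels state no mouse strain, sex, vector promoter or dose, and no time of day or lighting at collection. No uninjected retina was analysed here, and all values compare the 2 vectors.

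Immediate-early genes are transcribed within minutes of a stimulus without new protein synthesis, and their RNA is short-lived. In neurons, calcium entry and the ERK kinases activate the factors CREB, SRF and MEF2 on their promoters. In the retina such genes respond to light, to synaptic input and to injury. EGR1 to EGR4 are zinc finger transcription factors, of which EGR1 to EGR3 are restrained by the corepressors NAB1 and NAB2. NR4A1 to NR4A3 are orphan nuclear receptors that can bind DNA as monomers. NPAS4 is a calcium-dependent factor that pairs with ARNT proteins, ARC is a postsynaptic protein that regulates AMPA receptor traffic, and IER2 is a nuclear protein of the early growth response.

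None of the 9 tested genes differed between the vectors at an adjusted p under 0.05 in edgeR's quasi-likelihood test, where 11.2% of all tested genes did. At an unadjusted p under 0.05 there were 3 (Nr4a1, Nr4a3 and Npas4), all lower with AAV206-GFP, and the background at that level was 28.0% of genes in either direction and 14.3% lower. DESeq2 and limma-voom also called 0 of the 9, and limma-voom with sample weights called 3 (Nr4a1, Egr3 and Npas4). Over all 15539 tested genes, DESeq2 called 2254, limma-voom 1643 and limma-voom with sample weights 2157, against 1747 in the main edgeR fit. In none of the 9 genes were the 5 retinas of one vector separate from the 5 of the other, while 9.78% of all tested genes showed such separation (4.36% lower with AAV206-GFP). The median log2 fold change of the 9 was -0.25 and that of all tested genes -0.0095. The estimate was below 0 for 8 of the 9 genes, as for 51.8% of all tested genes, but that of Egr4 was -0.0022 and turned positive under upper-quartile scaling.

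Sequencing depth was 10989843 to 12752604 counts per library, and 3 counts correspond to 0.232 to 0.274 CPM (the read count relative to the TMM-adjusted library size), the floor used here for low levels. Some libraries stood apart. AAV2-GFP retinas 1 and 4 had 448 and 609 CPM over 10 interferon response genes, against 82.5 to 150 CPM in the other AAV2-GFP retinas and 85.4 to 109 CPM with AAV206-GFP. AAV2-GFP retina 1 also had 262 CPM over 10 microglia and macrophage genes, against 21.6 to 50.5 CPM elsewhere, and AAV206-GFP retina 4 had 114 CPM over 4 Y-linked genes, against 226 to 246 CPM elsewhere. Over 8 lymphocyte genes AAV2-GFP retina 1 had 15.9 CPM, against 0.0897 to 0.949 CPM elsewhere. AAV2-GFP retina 1 and AAV206-GFP retina 5 had 1012 and 899 CPM over 8 bipolar genes, against 1189 to 1381.5 CPM elsewhere. Over 5 horizontal cell genes these 2 retinas had 214 and 187 CPM, against 263 to 304 CPM elsewhere. The defining retinal markers were present in every library: 8 rod genes summed to 53222 to 56737 CPM with AAV2-GFP and 56906 to 62777 with AAV206-GFP, which did not overlap, and 10 ganglion cell genes to 1025 to 1200 and 968 to 1102 CPM. Erythrocyte genes summed to 67.8 to 85.8 and 101 to 319 CPM, and 7 lens genes to 9.97 to 29.8 and 0.821 to 11.8 CPM, with the lens gene Lim2 at 0 in all libraries. What part these differences have in the levels below was not tested, and in whole tissue fewer cells of a type and less RNA per cell cannot be told apart.

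Promoter windows from RefSeq (build GRCm38.p6, windows of 300 bases that lie mostly upstream of an annotated transcript start) were matched for 6 of the 10 genes, Egr2, Egr4, Nr4a1, Nr4a2, Nr4a3 and Npas4. Egr1, Egr3, Arc and Ier2 had no entry. The windows of 3 genes are printed: Nr4a1 and Nr4a2 as relatives whose levels ran in opposite directions within both groups, and Npas4 as the gene with the smallest p. Lines run 5′ to 3′ on the gene's own strand, and capitals mark matches on either strand to the CREB-type core TGACG and, in Nr4a1, also to the EGR-type sequence GCGGGGGCG.
Nr4a1, chr15:101266596-101266895, plus strand: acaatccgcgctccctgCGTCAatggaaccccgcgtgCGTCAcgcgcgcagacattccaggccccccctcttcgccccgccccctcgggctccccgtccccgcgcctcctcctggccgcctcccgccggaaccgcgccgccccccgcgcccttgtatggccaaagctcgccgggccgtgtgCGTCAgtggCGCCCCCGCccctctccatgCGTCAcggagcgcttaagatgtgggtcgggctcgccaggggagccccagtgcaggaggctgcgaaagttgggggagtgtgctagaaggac
Nr4a2, chr2:57123954-57124253, minus strand: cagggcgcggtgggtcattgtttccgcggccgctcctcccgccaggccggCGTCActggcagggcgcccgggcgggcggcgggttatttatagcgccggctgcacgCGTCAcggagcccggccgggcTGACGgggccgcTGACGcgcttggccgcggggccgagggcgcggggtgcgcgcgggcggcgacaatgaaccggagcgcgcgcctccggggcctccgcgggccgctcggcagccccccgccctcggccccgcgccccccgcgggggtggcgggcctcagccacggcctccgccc
Npas4, chr19:4989922-4990221, minus strand: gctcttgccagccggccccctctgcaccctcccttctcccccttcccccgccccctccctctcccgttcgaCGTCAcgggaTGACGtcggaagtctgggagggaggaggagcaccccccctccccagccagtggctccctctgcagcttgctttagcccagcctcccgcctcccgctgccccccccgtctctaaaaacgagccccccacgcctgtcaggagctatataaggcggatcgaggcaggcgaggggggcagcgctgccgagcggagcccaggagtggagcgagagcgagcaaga
The core TGACG was found on either strand in all 6 genes with a window, in Egr2 in 3 of its 5 windows, and in 20.8% of the 32851 windows of all genes. Nr4a1 and Nr4a2 each held it 4 times in the lines above, and Npas4 held it 2 times, pointing away from each other. The full site TGACGTCA was in none of the 6 genes and in 1.79% of all windows, and the NR4A monomer sequence AAAGGTCA in none and in 1.51%. GCGGGGGCG was in 1 of the 6 genes (2.91% of all windows) and GCGTGGGCG in none (0.612%). A CArG box, the sequence SRF binds, was in 1 gene, Egr2, and in 1.63% of all windows. For all these sequences the members are counted by gene and the background by window. Egr2, with 5 windows, thus had more chances of a match. The start used in each of the 3 printed windows is also that of a GENCODE transcript. For Nr4a1 the annotated gene begins farther upstream, at position 101254269, so its window lies inside the gene's span, and for Npas4 another transcript begins 345 bases upstream. These matches are descriptions of the letters in the windows and were set against no measurement of binding.

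Levels per length were compared as CPM per kilobase of annotated exons, in GENCODE M21 gene models, although the annotation behind the counts is not given in the sources used here. Ier2 (14.4 CPM per kilobase over all 10 libraries), Nr4a1 (12.8) and Egr1 (10.3) were highest, and their ranges overlapped from neighbour to neighbour. Nr4a2 (2.26) and Npas4 (2.04) followed, below Egr1 in every library and not separate from each other. Nr4a3 (0.917), Egr4 (0.713), Arc (0.657) and Egr3 (0.643) formed a lower tier whose neighbours overlapped. Npas4 lay above Nr4a3 in every library of its group, and Egr2 (0.0447) lay below Egr3 in every library. No gene annotated in these models overlapped any of the 10, and none of their counts carried decimals, which reads divided between genes can leave. Whether such reads enter their values was not tested.

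**Figure D1:**
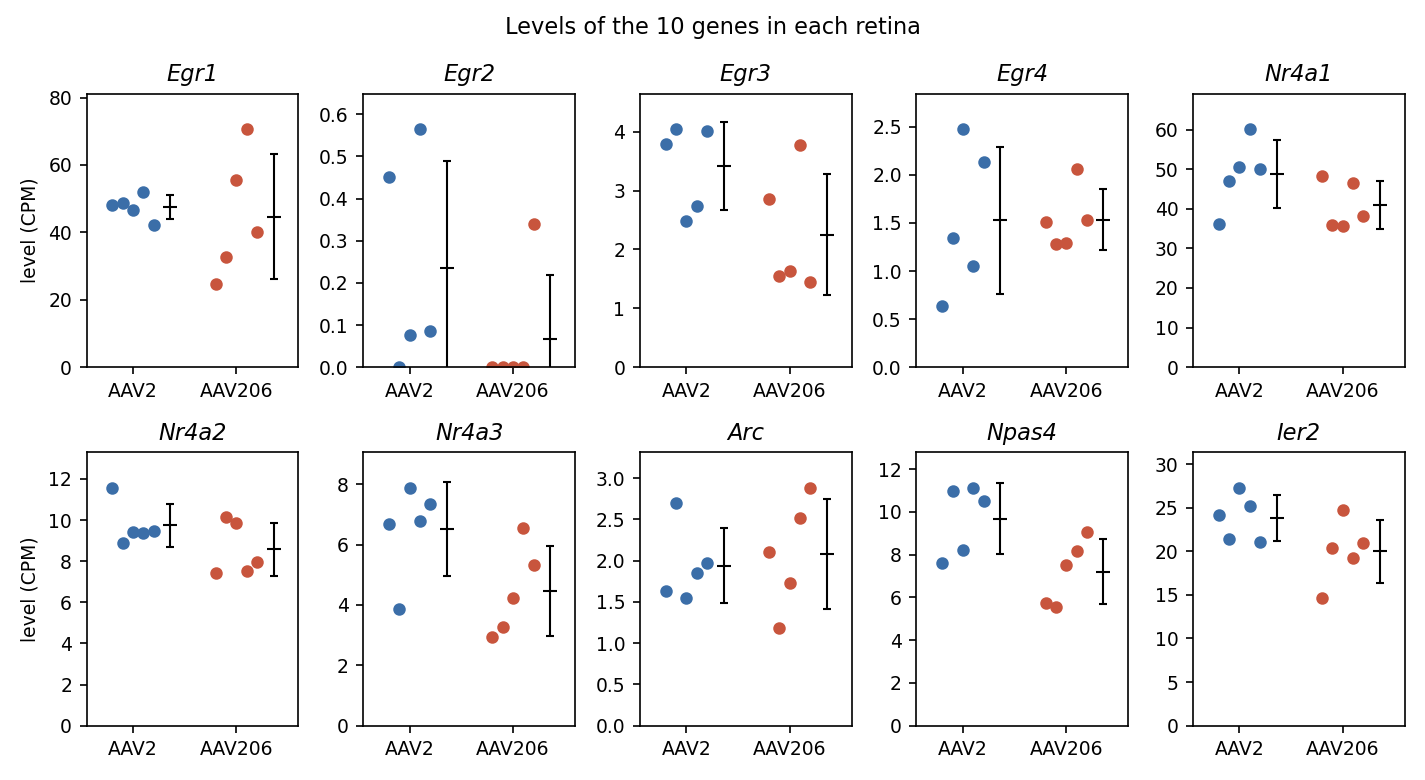
Level of each of the 10 genes in CPM (vertical axes, linear, from 0, with a different range for each gene) in the 5 AAV2-GFP retinas (blue) and the 5 AAV206-GFP retinas (red), points from left to right being replicates 1 to 5 and black bars the mean ± SD, clipped at 0 for Egr2. The groups overlap in every gene, and Egr1 ranges from 42.3 to 51.9 CPM with AAV2-GFP and from 24.6 to 70.6 CPM with AAV206-GFP.

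Egr1 (ENSMUSG00000038418), the most studied EGR factor and one linked to control of eye growth in animal models, was at 48.0, 48.8, 46.6, 51.9 and 42.3 CPM in AAV2-GFP retinas 1 to 5. In AAV206-GFP retinas 1 to 5 it was at 24.6, 32.6, 55.5, 70.6 and 40.1 CPM. The AAV206-GFP retinas thus lay on both sides of the AAV2-GFP range, 2 above it and 3 below it. The means were 47.5 ± 3.52 and 44.7 ± 18.5 CPM (SD, n = 5), for a log2 fold change of -0.09 (standard error 0.20, edgeR adjusted p = 0.803). The 95% interval of that log2 fold change, -0.51 to 0.33, covers changes in either direction, and without AAV206-GFP replicate 1 or 2 the estimate was 0.06 or 0.0031.

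The spread of Egr1 is given as a description, since it was chosen after the values were seen and its test did not pass adjustment. Its coefficient of variation in the AAV2-GFP retinas was 7.41%, and in the AAV206-GFP retinas 41.3%, and the SD of log2(CPM + 1) was 0.106 and 0.590, a ratio of 5.55. Absolute deviations from the group median gave p = 0.0476 for Egr1 (permutation test over all 252 relabellings, two-sided, n = 5), which did not pass when adjusted over the 9 genes (0.428). This p is approximate, as each median was estimated from the same 5 values. Egr4 had its larger SD in the other group, 0.445 with AAV2-GFP against 0.173 with AAV206-GFP (same permutation test, p = 0.103, adjusted 0.463). Leaving out each library in turn gave ratios from 4.54 (without AAV206-GFP replicate 4) to 9.15 (without AAV2-GFP replicate 5).

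Egr3 (ENSMUSG00000033730), an activity-induced relative also known for its part in muscle spindle development, was at 3.80, 4.04, 2.47, 2.74 and 4.02 CPM with AAV2-GFP and at 2.86, 1.55, 1.64, 3.77 and 1.44 CPM with AAV206-GFP. AAV206-GFP retinas 2, 3 and 5 lay below all AAV2-GFP retinas, while 1 and 4 lay within them. The means were 3.41 ± 0.748 and 2.25 ± 1.02 CPM (SD, n = 5), for a log2 fold change of -0.60 (standard error 0.29, edgeR adjusted p = 0.196). This was the estimate farthest from 0 among the 9 genes, on 17 to 47 reads per library, and its 95% interval ran from -1.22 to 0.03.

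Egr4 (ENSMUSG00000071341), a neuron-enriched EGR factor, was at 0.633, 1.35, 2.47, 1.05 and 2.14 CPM with AAV2-GFP and at 1.51, 1.28, 1.29, 2.06 and 1.53 CPM with AAV206-GFP. The AAV206-GFP values lay inside the AAV2-GFP range. The means were 1.53 ± 0.763 and 1.53 ± 0.318 CPM (SD, n = 5), and the 95% interval of the log2 fold change, -0.73 to 0.72, was the widest of the 9 genes.

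Egr2 (ENSMUSG00000037868), known from hindbrain patterning and Schwann cell myelination, was near the limit of detection. AAV2-GFP retinas 1 to 5 gave 5, 0, 1, 7 and 1 reads, and AAV206-GFP retinas gave 0 reads in 4 and 4 reads in retina 5. The totals were 14 and 4 reads. Only 3 of the 10 libraries were above the floor of 3 counts, and Egr2 was left out of the test for low counts. Without a filter its edgeR adjusted p was 0.450.

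Nr4a1 (ENSMUSG00000023034, chr15:101254269-101274795), also called Nur77 and rapidly induced in neurons and T cells, was at 36.3, 47.1, 50.5, 60.1 and 50.1 CPM with AAV2-GFP. With AAV206-GFP it was at 48.3, 35.9, 35.5, 46.5 and 38.2 CPM. AAV206-GFP retinas 2 and 3 were just below the lowest AAV2-GFP retina, and the others lay within the AAV2-GFP range. The means were 48.8 ± 8.55 and 40.9 ± 6.04 CPM (SD, n = 5), for a log2 fold change of -0.26 (standard error 0.12, 95% interval -0.51 to -0.0025, edgeR adjusted p = 0.174). Without AAV2-GFP replicate 1, which had the lowest Nr4a1 of its group, the log2 fold change was -0.34 with an edgeR adjusted p of 0.0397. That retina also had the highest microglia and macrophage sum, and their relation was not tested. Without AAV2-GFP replicates 1 and 4, those with high interferon levels, the log2 fold change was -0.27 (edgeR adjusted p = 0.136). Without AAV2-GFP replicate 4 alone it was -0.17 (edgeR adjusted p = 0.399). Over all alternatives the adjusted p ran from 0.0397 to 0.399.

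Nr4a2 (ENSMUSG00000026826, chr2:57106830-57124003), known as Nurr1 for its part in dopaminergic neurons, was at 11.6, 8.89, 9.43, 9.36 and 9.48 CPM with AAV2-GFP and at 7.40, 10.1, 9.83, 7.54 and 7.97 CPM with AAV206-GFP. AAV206-GFP retinas 1, 4 and 5 lay below every AAV2-GFP retina and 2 and 3 lay within their range. The means were 9.75 ± 1.05 and 8.57 ± 1.304 CPM (SD, n = 5), for a log2 fold change of -0.19 (95% interval -0.48 to 0.11, edgeR adjusted p = 0.404).

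Nr4a3 (ENSMUSG00000028341, chr4:48045153-48086447), also called NOR1, was at 6.69, 3.86, 7.89, 6.78 and 7.35 CPM with AAV2-GFP and at 2.94, 3.28, 4.23, 6.55 and 5.34 CPM with AAV206-GFP. All AAV206-GFP retinas were below 4 of the AAV2-GFP retinas, and AAV2-GFP retina 2 made the groups overlap. The means were 6.51 ± 1.56 and 4.47 ± 1.49 CPM (SD, n = 5), for a log2 fold change of -0.55 (standard error 0.24, 95% interval -1.05 to -0.04, edgeR adjusted p = 0.147). Without AAV2-GFP replicate 2 the edgeR adjusted p was 0.0593, the lowest of its 22 alternatives.

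Npas4 (ENSMUSG00000045903, chr19:4984355-4990316), whose induction in neurons depends closely on calcium entry, was at 7.59, 10.96, 8.20, 11.1 and 10.5 CPM with AAV2-GFP. With AAV206-GFP it was at 5.72, 5.56, 7.50, 8.16 and 9.07 CPM. AAV206-GFP retinas 1, 2 and 3 lay below all AAV2-GFP retinas and 4 and 5 among them. The means were 9.68 ± 1.66 and 7.20 ± 1.53 CPM (SD, n = 5), for a log2 fold change of -0.42 (standard error 0.17, 95% interval -0.79 to -0.06, edgeR adjusted p = 0.117). It had the smallest p of the 9 genes, and its adjusted p over all alternatives ran from 0.0373 to 0.242.

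Arc (ENSMUSG00000022602), the postsynaptic effector among the 10, was at 1.63, 2.69, 1.55, 1.86 and 1.97 CPM with AAV2-GFP and at 2.10, 1.19, 1.72, 2.51 and 2.88 CPM with AAV206-GFP. It was the 1 tested gene with an estimate above 0, at means of 1.94 ± 0.456 and 2.08 ± 0.663 CPM (SD, n = 5) and a log2 fold change of 0.11 (95% interval -0.49 to 0.71, edgeR adjusted p = 0.836). That sign did not hold throughout, being negative without AAV206-GFP replicate 5 (-0.04) and with sample weights (-0.09).

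Ier2 (ENSMUSG00000053560) was at 24.1, 21.5, 27.3, 25.2 and 21.0 CPM with AAV2-GFP and at 14.6, 20.4, 24.8, 19.3 and 20.9 CPM with AAV206-GFP. AAV206-GFP retina 3 lay inside the AAV2-GFP range and the other 4 lay below it, retina 1 farthest. The means were 23.8 ± 2.62 and 20.01 ± 3.64 CPM (SD, n = 5), for a log2 fold change of -0.25 (95% interval -0.51 to 0.0074, edgeR adjusted p = 0.190).

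**Figure D2:**
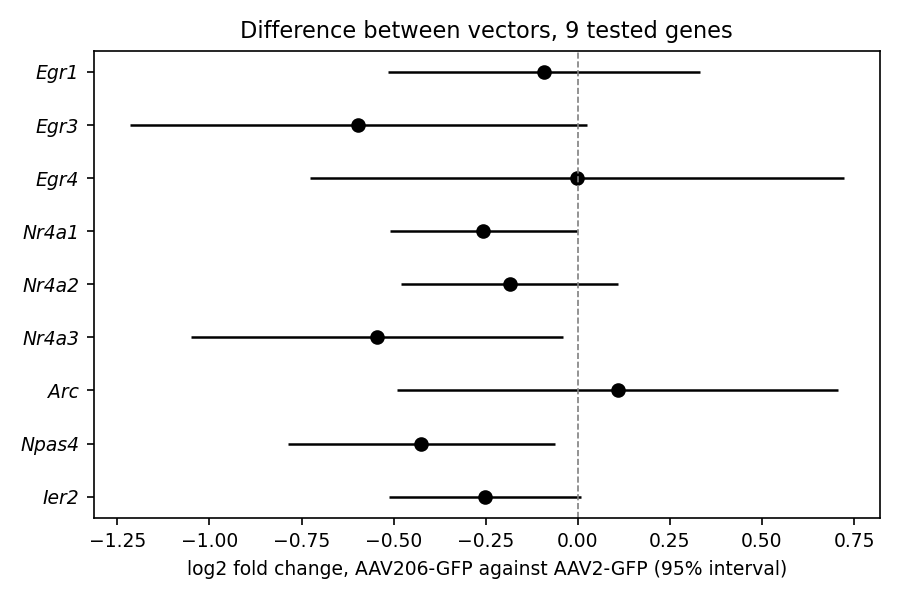
Log2 fold change of AAV206-GFP against AAV2-GFP (horizontal axis, points) with its 95% interval from the edgeR fit (lines) for the 9 tested genes, the dashed line marking no difference. The intervals of Nr4a1, Nr4a3 and Npas4 end below 0 before adjustment, and that of Egr1 spans -0.51 to 0.33.

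No pair of the 9 tested genes passed adjustment when their levels were correlated from retina to retina. With the group means removed, the 36 pairs of log2(CPM + 1) values had Pearson correlations from -0.80 to 0.75, with a median of 0.13 over the 10 libraries. Both genes of a pair are read in the same libraries, which differ in depth and marker sums as given above. Leaving out each library in turn moved this median from 0.0493 (without AAV206-GFP replicate 4) to 0.214 (without AAV2-GFP replicate 2). At an unadjusted p under 0.05 there were 4 pairs (exact permutation within groups, 14400 orders, two-sided), and none passed after Benjamini-Hochberg adjustment over the 36. The strongest by Pearson r was between Nr4a1 and Nr4a2, which ran in opposite directions in both groups (r = -0.78 within AAV2-GFP, -0.885 within AAV206-GFP). Within AAV2-GFP, retina 1 stood apart with the most Nr4a2 and the least Nr4a1 of its group. Over all 10 libraries r was -0.80 (exact permutation p = 0.0119, adjusted 0.420) and Spearman's rho -0.72 (exact permutation p = 0.0299, adjusted 0.429), and r was -0.83 without the 2 libraries farthest from the median of Nr4a1. Arc and Npas4 followed with r = 0.75 (exact permutation p = 0.0247, adjusted 0.420) and rho = 0.71 (exact permutation p = 0.0497, adjusted 0.448), and r was 0.57 without the 2 farthest libraries. Within AAV2-GFP and AAV206-GFP this r was 0.72 and 0.77. The remaining pairs of the 4 were negative, Nr4a2 with Arc (r = -0.74, exact permutation p = 0.035) and Egr4 with Nr4a2 (r = -0.55, exact permutation p = 0.0490). By rank, Egr3 and Ier2 had the largest rho of the 36 pairs, -0.76 (exact permutation p = 0.0199, adjusted 0.429), with r = -0.67.

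**Figure D3:**
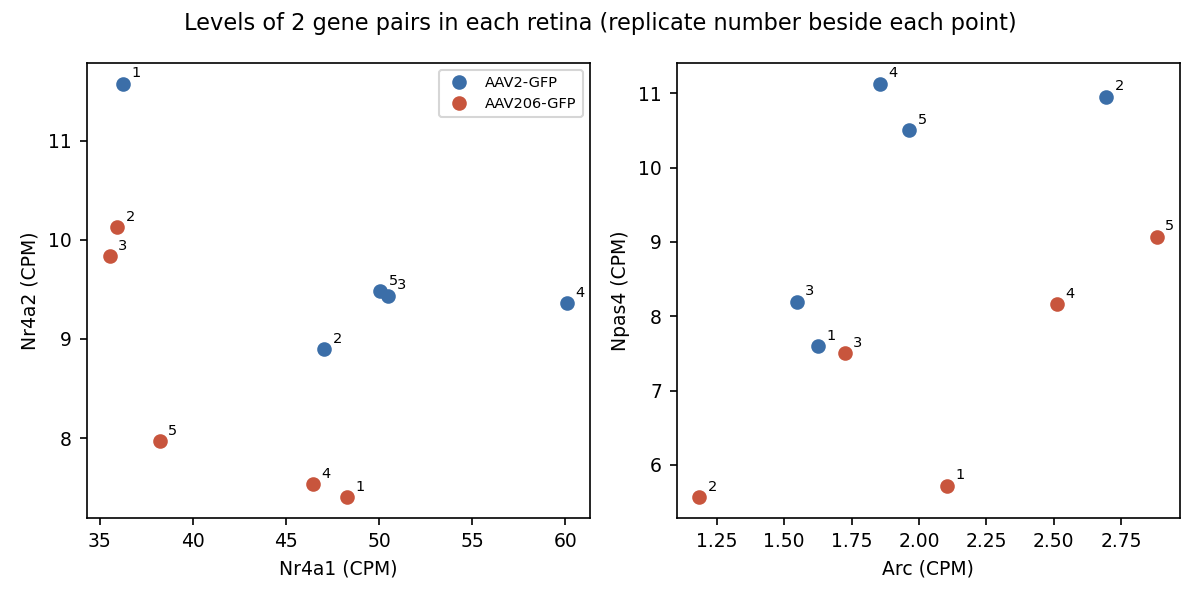
Nr4a2 against Nr4a1 (left) and Npas4 against Arc (right), each in CPM on linear axes that do not start at 0, with a point for each retina of AAV2-GFP (blue) and AAV206-GFP (red) and its replicate number beside it. Retinas with more Nr4a1 tend to have less Nr4a2 within each color (r = -0.80 with group means removed), and retinas with more Arc tend to have more Npas4 (r = 0.75), neither of which passed adjustment over 36 pairs.

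The mean profile of the 9 genes within groups was lowest in AAV206-GFP retinas 1 and 2, with 3 and 2 of the genes above their group mean, and highest in AAV206-GFP retina 4, with 7 of 9 above. The AAV2-GFP retinas had 4 to 6 of the 9 above their group mean. Summed over all 10 genes the level was 141 to 171 CPM with AAV2-GFP and 110 to 167 CPM with AAV206-GFP. Among 11911 other genes averaging 5 CPM or more, those most like this profile over the 10 libraries were Fgf1 (r = 0.92), Faf1 (0.91), Cnot10 (0.91), Rap1gds1 (0.90), Zfp568 (0.90), Scd2 (0.90), Zfp597 (0.90) and Vps35 (0.89). These are the highest of many correlations and are given as a description. Of the 8, Rap1gds1 was lower with AAV206-GFP (227 ± 7.62 against 189 ± 10.7 CPM, SD, n = 5, edgeR adjusted p = 0.00757), and the other 7 did not pass.

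The rest of the activity-response pathway was read from lists written with earlier results of these data known, so their counts are descriptions, to be read against the 11.2% of all tested genes that passed (5.30% lower, 5.95% higher). Of the AP-1 subunits, the FOS and JUN proteins that are induced beside EGR1, 6 of 7 were tested and 1 was lower, where 5.30% of all tested genes were. This was Jun, which fell from 61.2 ± 3.90 to 45.4 ± 6.20 CPM (SD, n = 5), for a log2 fold change of -0.43 (standard error 0.09, edgeR adjusted p = 0.00471), and it carried decimals in 2 libraries. Fos itself was at 31.9 ± 4.30 and 25.9 ± 4.70 CPM (edgeR adjusted p = 0.124), and the list's median log2 fold change was -0.32.

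Of 35 other immediate-early genes 33 were tested, and 8 were lower and 0 higher with AAV206-GFP, beside 5.30% of all tested genes lower and 5.95% higher. The median log2 fold change was -0.25, equal to that of the 9 EGR, NR4A and activity genes at this rounding. Gadd45g, a stress-responsive growth arrest gene, fell from 12.1 ± 1.05 to 8.15 ± 0.742 CPM (SD, n = 5; log2 fold change -0.57, edgeR adjusted p = 0.00727). Nfil3, a bZIP repressor, fell from 16.7 ± 0.683 to 12.3 ± 1.34 CPM (log2 fold change -0.44, edgeR adjusted p = 0.0139). Ier5l, a relative of the early response gene Ier5, fell from 11.6 ± 1.93 to 7.71 ± 0.820 CPM (log2 fold change -0.59, edgeR adjusted p = 0.0160).
Klf4 and Maff had the largest estimates of the list. Klf4, a Krüppel-like factor, fell from 3.74 ± 0.791 to 1.83 ± 0.521 CPM (log2 fold change -1.03, edgeR adjusted p = 0.0173), and Maff, a small MAF factor, from 2.81 ± 0.828 to 1.32 ± 0.233 CPM (log2 fold change -1.09, edgeR adjusted p = 0.0174). Klf6 fell from 24.8 ± 3.86 to 18.0 ± 3.12 CPM (log2 fold change -0.47, edgeR adjusted p = 0.0314). The remaining 2, Atf3 and Ccn2, stand outside the naming rule. When each library was left out in turn, Gadd45g, Nfil3 and Ier5l passed all 10 times. Klf4 did not pass without AAV2-GFP replicate 4 (edgeR adjusted p = 0.0575) and Maff did not without AAV2-GFP replicate 3 (0.0557). Klf6 did not pass without AAV2-GFP replicate 1 or 4 or AAV206-GFP replicate 1, 2 or 4 (edgeR adjusted p up to 0.084), and Atf3 and Ccn2 passed 4 and 2 times. Maff carried decimals in 2 libraries and Ccn2 in 7. The count of 8 lower was 5 to 11 with a library left out, and 5 without both AAV2-GFP retinas with high interferon levels, with 0 higher each time. Whether this list differs from the EGR, NR4A and activity genes was not tested.
Markers of several cell types also had estimates below 0, as did 51.8% of all tested genes. This held for 8 of 8 Müller glia genes (median log2 fold change -0.19, 0 past the threshold), 8 of 10 ganglion cell genes (-0.15, 1 lower), 5 of 7 endothelial genes (-0.31, 2 lower and 1 higher) and 5 of 5 tested retinal pigment epithelium genes (-0.56, 1 lower). It held for every tested microglia and macrophage gene (8, -1.44, 2 lower), interferon response gene (8, -1.99, 6 lower) and lens gene (3, -2.5, 2 lower). In other lists, 3 of 8 rod genes (0.07, 2 higher) and 2 of 8 cone genes (0.10, 2 higher and 1 lower) were below 0. The count was 4 of 8 for bipolar (0.03, 1 lower), 2 of 8 for amacrine (0.02), 3 of 5 for horizontal (-0.0019) and 0 of 5 for erythrocyte genes (1.28, 4 higher). The summed Müller glia level was 2777 to 3627 CPM with AAV2-GFP and 2442 to 3035 CPM with AAV206-GFP. The endothelial sum was 291 to 337 and 288 to 329 CPM, and the retinal pigment epithelium sum 13.3 to 39.7 and 14.9 to 23.8 CPM. Of these markers only the lens gene Lim2 was at 0 in every library, and their part in the levels of the immediate-early genes was not tested.

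**Figure D4:**
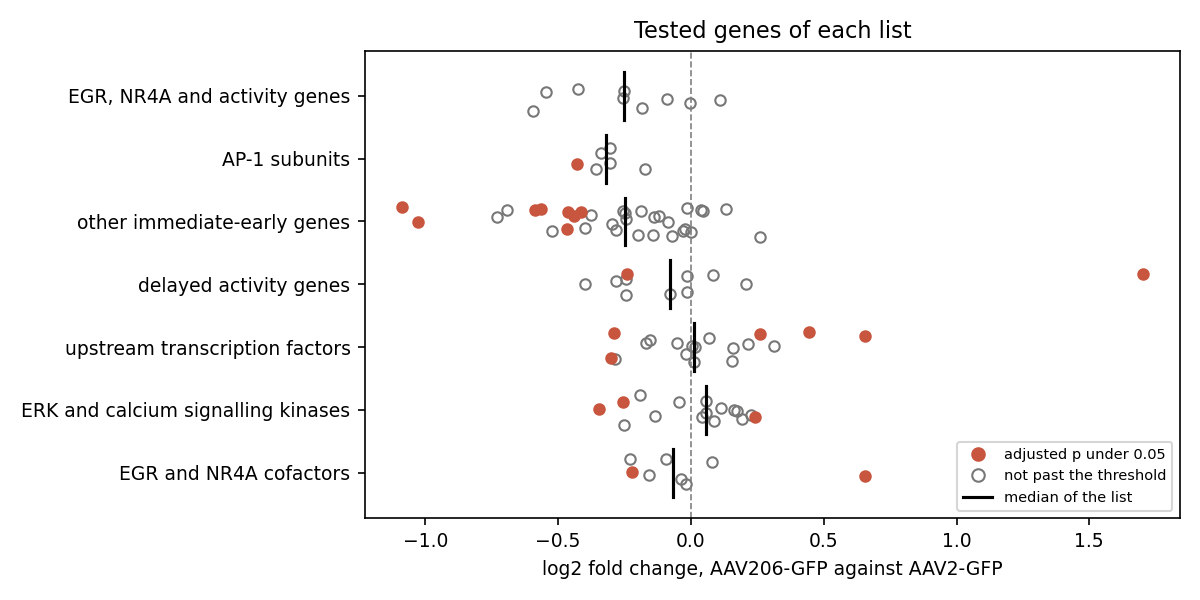
Log2 fold change of AAV206-GFP against AAV2-GFP (horizontal axis) for the tested genes of each list (rows, points spread vertically for legibility), red where the edgeR adjusted p is under 0.05 and open where it is not, with a black line at the median of the list. No EGR, NR4A or activity gene is red, while 8 of 33 other immediate-early genes are, all of them lower.

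Of 18 upstream transcription factors 2 were lower and 3 higher, and 13 did not pass, beside 11.2% of all tested genes past the threshold. The RNA for SRF, the factor of the CArG box, and for its coactivator MRTF-A was lower. Srf fell from 32.0 ± 2.65 to 26.2 ± 2.23 CPM (SD, n = 5, log2 fold change -0.29, edgeR adjusted p = 0.0386) and Mrtfa from 34.7 ± 1.80 to 28.2 ± 3.61 CPM (log2 fold change -0.30, edgeR adjusted p = 0.0400). The second MRTF gene went the other way, Mrtfb rising from 33.8 ± 5.51 to 45.9 ± 4.62 CPM (log2 fold change 0.44, edgeR adjusted p = 0.0141). Crtc1, a CREB coactivator, rose from 99.7 ± 9.35 to 119 ± 9.97 CPM (log2 fold change 0.26, edgeR adjusted p = 0.0381).
Arnt2, which encodes a dimerization partner of NPAS4, rose from 21.1 ± 2.74 to 33.2 ± 2.71 CPM (SD, n = 5), for a log2 fold change of 0.66 (standard error 0.10, edgeR adjusted p = 0.00051). The groups did not overlap, and Arnt2 was past the threshold in all 22 alternatives. With each library left out in turn, Mrtfb passed 10 times and Srf, Mrtfa and Crtc1 passed 3, 3 and 4 times. Srf passed only without AAV2-GFP replicate 1 or AAV206-GFP replicate 1 or 5, and Mrtfa only without AAV2-GFP replicate 1 or AAV206-GFP replicate 2 or 5. Crtc1 did not pass without AAV2-GFP replicate 1, 3 or 4 or AAV206-GFP replicate 1, 2 or 4 (edgeR adjusted p up to 0.0988).

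Of 16 ERK and calcium signalling kinases 2 were lower and 1 higher, and 13 did not pass, where 5.30% of all tested genes were lower and 5.95% higher. The ERK kinase genes Map2k2 (86.4 ± 5.56 to 68.0 ± 8.87 CPM, SD, n = 5, edgeR adjusted p = 0.0152) and Map2k1 (97.0 ± 10.7 to 81.2 ± 5.65 CPM, edgeR adjusted p = 0.0448) fell by 0.34 and 0.26 on the log2 scale. Map2k1 passed only without AAV2-GFP replicate 1 or 5 or AAV206-GFP replicate 5 among the 10 fits with a library left out. Camk2g, a calcium/calmodulin kinase subunit, rose from 109 ± 6.47 to 129 ± 8.28 CPM (log2 fold change 0.24, edgeR adjusted p = 0.0233), and did not pass without AAV2-GFP replicate 3 or 4 or AAV206-GFP replicate 4 (0.0536, 0.069 and 0.0581). Of 8 EGR and NR4A cofactors, 1 was lower, the EGR corepressor gene Nab1 (42.1 ± 2.49 to 36.1 ± 0.796 CPM, log2 fold change -0.22, edgeR adjusted p = 0.0390), and 1 higher, Arnt2, which stands in both lists, with the same background. Nab1 passed only without AAV2-GFP replicate 1 or 2 when each library was left out.

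Of 12 delayed activity genes, which neurons transcribe after the early wave, 11 were tested, and 1 was higher and 1 lower, beside 5.95% and 5.30% of all tested genes. Penk, the proenkephalin gene, rose from 4.21 ± 1.17 to 13.7 ± 9.59 CPM (SD, n = 5), for a log2 fold change of 1.70 (standard error 0.35, edgeR adjusted p = 0.00593), and it was past the threshold in all 22 alternatives, with estimates from 1.18 to 1.88. Scg2, the secretogranin II gene, fell from 296 ± 29.97 to 251 ± 12.5 CPM (log2 fold change -0.24, edgeR adjusted p = 0.0403), and passed only without AAV2-GFP replicate 1 or 2 when each library was left out. The other 9, among them Bdnf, did not pass, and the median log2 fold change of the list was -0.08.

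**Figure D5:**
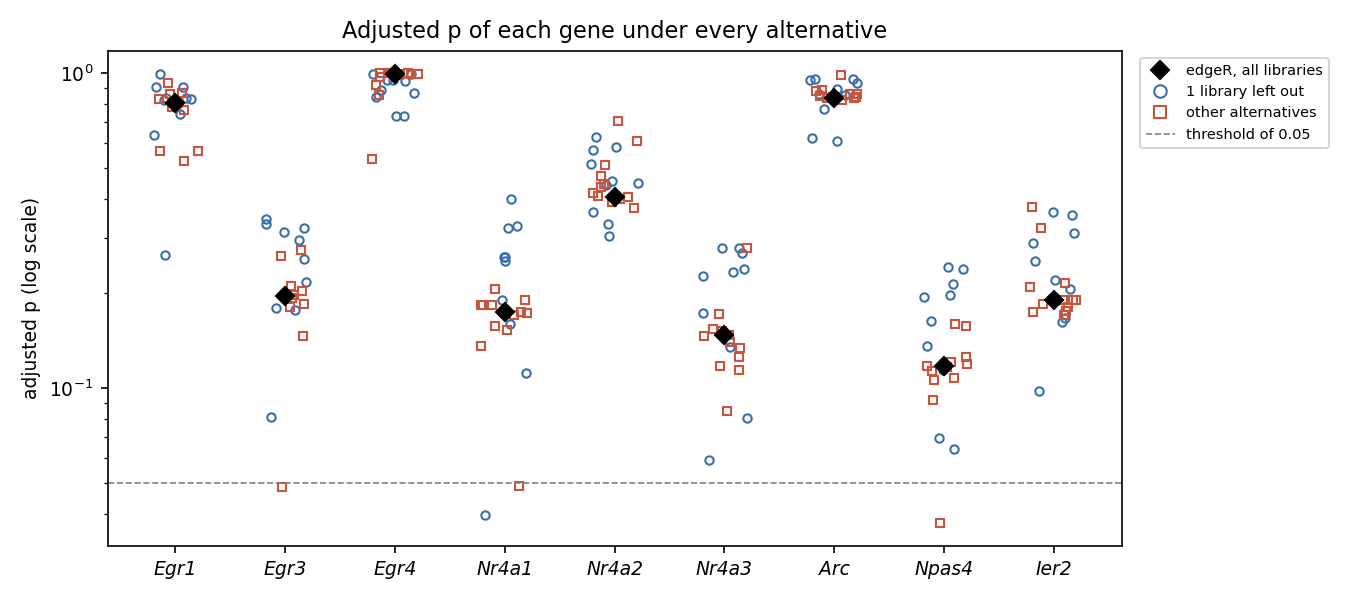
Adjusted p of each of the 9 tested genes (vertical axis, log scale) with edgeR on all libraries (black diamonds), with 1 library left out (blue circles) and under the other alternatives (red squares), the dashed line marking 0.05. The points under the line are Nr4a1 without AAV2-GFP replicate 1 and, with limma-voom and sample weights, Nr4a1, Egr3 and Npas4.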

How the data were processed

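RNA was measured in 10 retinas, with groups and replicate numbers read from the sample titles. The authors deposited estimated counts for each gene without scaling. STAR 2.7.10b, RSEM 1.3.1 and the build mm10 are named in the submitters' processing notes, and the annotation is not given in the sources used here. Per the labels' protocols, an NEBNext Ultra kit and paired reads of 150 bases were used. Of the values above 0, 15.7% carried decimals, so counts were rounded before modelling, where the planned test allowed for either form. Symbols, exon lengths and gene coordinates came from GENCODE M21 (GRCm38).

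Genes were kept by filterByExpr (minimum count 10) and tested with edgeR 4.0.16 in R 4.3.3, using TMM scaling, the quasi-likelihood F test on all 10 libraries without covariates, and Benjamini-Hochberg adjustment over 15539 genes with a threshold of 0.05. Standard errors are the absolute log2 fold change over the square root of F, and levels are CPM. DESeq2 1.42.0 and limma 3.58.1 served as alternatives. The procedure was tested on simulated data, where it recovered 77.3% of 2-fold and 63.9% of 1.5-fold changes, and 8 of 145 calls were false. Fewer genes were changed there than were called in the retinas, and the changed genes were drawn from all levels. These rates therefore do not give the recovery at the low levels of Egr3, Egr4 and Arc. Smaller changes were not simulated, so a gene that did not pass may still differ. The members and lists were chosen with earlier results of these data known. From each list the genes past the threshold, up to the 6 with the smallest p, are named. The genes likest the members were the 8 with the highest Pearson r. Floors cover counting error only, as reads carried no stated molecular identifiers. Within groups, chi-square per degree of freedom was 3.69 to 22.3, and no libraries agreed within sampling noise. The labels give separate mice and no batch.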

Additional observations from a re-analysis of the deposited data

Results flagged for a closer look

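In 20 sets of 5 retinas (10 genes, each group), 2 had a retina far from the others, judged by Dixon's ratio of the gap to the nearest other retina over the whole spread (critical value 0.71), where chance gives about 1.0. Nr4a2 in AAV2-GFP was at 11.57 CPM in replicate 1, against 8.89 to 9.48 CPM in the other retinas (ratio 0.780). That retina also had the highest microglia and macrophage sum, 262 CPM, and their relation was not tested. Egr2 in AAV206-GFP was at 0.339 CPM in replicate 5 and at 0 in the other 4, a difference of 4 reads. With 4 values tied at 0 the ratio is 1.0 for any level in the remaining retina. The critical value and the number given by chance do not apply to such ties.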

How the results depend on the processing

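The count of EGR, NR4A and activity genes past the threshold stayed at 0 in all alternatives but 2 kinds. It was 3 with limma-voom and sample weights, which ran from 0.569 (AAV2-GFP replicate 3) to 1.69 (AAV2-GFP replicate 5), and 0 to 1 with a library left out (Nr4a1, without AAV2-GFP replicate 1). Over all genes, 2157 of 15539 passed with sample weights and 1912 of 15699 without AAV2-GFP replicate 1. The number of EGR, NR4A and activity genes at an unadjusted p under 0.05 was 0 without AAV2-GFP replicate 4 or AAV206-GFP replicate 2, and 4 without AAV206-GFP replicate 4. The share of all genes at that level was 28.0% in edgeR with all libraries, and was not computed for the fits that left out a library. The sign of Egr4 turned positive under upper-quartile scaling (0.0074), a mean of at least 1 CPM (9.5e-05), DESeq2 (0.00064), limma-voom (0.12), limma-voom with sample weights (0.01965) and the replicate block (0.08197), and ranged from -0.1931 to 0.2439 over the fits that left out a library. Those fits gave -0.3158 to 0.06413 for Egr1 and -0.0381 to 0.2521 for Arc, and Arc was -0.09178 with sample weights.

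Over all genes, 1747 passed, with 991 to 1912 over the fits that left out a library, 985 without AAV2-GFP replicates 1 and 4, and 1085 with the replicate block. It was 991 without AAV2-GFP replicate 4, 1074 without AAV206-GFP replicate 2 and 1056 without AAV206-GFP replicate 4. Pathway list genes past the threshold numbered 20, with 10 to 25, 10 and 12 in the same order. Same-numbered retinas shared only a number, with correlations of their deviations from -0.05 to 0.04, and no retina pair was taken as paired. The cause of these shifts was not tested. The median correlation among the 9 genes, 0.13, kept its sign with each library left out. It was 0.0493 without AAV206-GFP replicate 4, 0.0837 without AAV206-GFP replicate 2, and 0.214 without AAV2-GFP replicate 2 or 3. Its jackknife standard error was 0.147. That value is computed from the same fits that left out a library, so the size of these shifts cannot be judged against it. Depth limits Egr2 most, and Egr3, Egr4 and Arc rest on under 50 reads per library.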
